A study of Mus musculus with 188 samples.

Results

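Cholesterol and fatty acid synthesis genes were followed here through 7 transcripts, Hmgcs1, Idi1, Fdps, Fdft1, Sqle, Fasn and Scd1, in single basal cells of mouse tail epidermis. They were picked by symbol, as the rows of the deposited count table whose Ensembl identifiers carry these names, and make up 7 of its 49585 gene rows. Each sample is 1 cell, and 94 cells on each of 2 plates gave 1 library each by Smart-seq2, which copies polyadenylated RNA into full-length cDNA. All cells form 1 group: Lrig1-CreERT2/RosaYFP mice at postnatal day 20, interfollicular epidermis (IFE), sorted as negative for Cd34, positive for Itga6 and negative for YFP. In this strain a Cre recombinase driven from Lrig1, a gene of the upper hair follicle, marks cells with YFP, and the cells used are the unmarked ones. No label names an animal, so the cells count as 1 sample, no p-value was computed, and every spread is a spread between cells. The questions are whether the members vary together from cell to cell, and how they relate to Krt10, an early differentiation keratin, and to the cell cycle.

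Cholesterol is built from acetyl-CoA through mevalonate, isoprenoid units, squalene and a series of sterols, and fatty acids are built from acetyl-CoA and malonyl-CoA and then elongated and desaturated. The SREBP transcription factors, encoded by Srebf1 and Srebf2, are released from the endoplasmic reticulum when sterols are low and activate most genes of both routes, with Srebf2 weighted towards sterol genes and Srebf1 towards fatty acid genes. In epidermis both lipids feed the barrier that keratinocytes assemble as they leave the basal layer.

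Gene totals per cell ran from 79868 to 1093805 reads, with a median of 369991, and 5821 to 8720 genes were detected per cell. Itga6 was at 36.3 to 2543 CPM (read counts scaled to the same sum of gene reads in every cell, spike-ins left out), with 10 CPM or more in 100% of cells, and Cd34 had no read in any cell. Some reads passed between wells: genes read almost only in a few wells left traces in wells of the same lettered row and column. Rows were matched by letter across both plates, and columns within a plate. The estimate thus lets reads pass between plates, and the plates are not treated as fully separate sets of reads. By this measure the share of a cell's counts that came from other wells had a median of 9.58% and a range of 3.05% to 51.1%. The summed level of T cell markers averaged 0.00625 CPM, of Langerhans cell markers 1.16 CPM, of melanocyte markers 11.6 CPM and of endothelial markers 2.18 CPM. Fibroblast markers summed to 26.03 CPM on average and upper hair follicle markers to 301 CPM. Single genes carried most of both sums. Dcn averaged 25.6 CPM, while Col1a1 was at 0.226 CPM and Lum and Pdgfra had no read. Krt17 averaged 150.05 CPM and Cst6 93.1 CPM, while Lrig1 was at 7.25 CPM and Krt79 at 8.18 CPM. Sebaceous gland cells make much lipid, and of 13 sebaceous markers 5 had no read in any cell (Plin5, Cidea, Awat1, Dgat2l6 and Mc5r). Only Mgst1, which other epithelial cells also express, reached 10 CPM in at least 10% of the cells. The summed sebaceous level ran from 0 to 995 CPM with a median of 24.8 CPM.

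The members lie on 6 chromosomes, and positions are those of GENCODE M21 on GRCm38, over the whole gene with exons and introns. Hmgcs1 makes HMG-CoA, the precursor of mevalonate, and spans chr13:119690379-119708260 on the plus strand. Idi1, which interconverts the isoprenoid units, spans chr13:8885501-8892451 on the plus strand. Fdps, which joins them into farnesyl diphosphate, spans chr3:89093588-89101959 on the minus strand. Fdft1, which makes squalene and commits carbon to sterols, spans chr14:63145150-63179578 on the minus strand. Sqle, the squalene epoxidase, spans chr15:59315077-59331192 on the plus strand. Fasn, the fatty acid synthase, spans chr11:120805846-120824547 on the minus strand, and Scd1, the desaturase that makes monounsaturated fatty acids, spans chr19:44394455-44407879 on the minus strand. Overlapping annotation touches 4 of them. The transcript Gm43738 shares 26.7% of the exonic bases of Fdps on the same strand and had no read in any cell, so reads in that stretch may have gone uncounted. Ctsb shares 18.3% of the exonic bases of Fdft1 on the opposite strand, and its level across cells had a Spearman's rho of 0.0678 with Fdft1. Noncoding transcripts share 12.1% of the exonic bases of Hmgcs1 and 9.22% of those of Idi1. Idi1 and Scd1 have close paralogs beside them (Idi2; Scd2, Scd3 and Scd4), and reads shared between such copies cannot be assigned from these counts.

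The RefSeq promoter table (GRCm38.p6) matched 3 of the 7 members, Hmgcs1, Idi1 and Fasn. The 250 bases before the RefSeq start of Hmgcs1 and of Fasn are shown because both windows end before any annotated transcript of the gene, and because these genes, one of sterol and the other of fatty acid synthesis, barely followed each other below. Each reads 5′ to 3′ on the gene's own strand, and capitals mark matches, on either strand, to TCACNCCAC, a form of the sterol regulatory element, and to CCAAT, the box bound by NF-Y.
Hmgcs1, chr13:119690101-119690350, plus strand: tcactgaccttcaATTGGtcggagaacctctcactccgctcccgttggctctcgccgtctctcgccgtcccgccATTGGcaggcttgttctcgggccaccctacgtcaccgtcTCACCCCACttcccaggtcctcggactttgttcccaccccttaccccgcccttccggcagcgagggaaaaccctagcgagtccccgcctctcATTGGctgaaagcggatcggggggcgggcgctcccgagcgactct
Fasn, chr11:120824548-120824797, minus strand: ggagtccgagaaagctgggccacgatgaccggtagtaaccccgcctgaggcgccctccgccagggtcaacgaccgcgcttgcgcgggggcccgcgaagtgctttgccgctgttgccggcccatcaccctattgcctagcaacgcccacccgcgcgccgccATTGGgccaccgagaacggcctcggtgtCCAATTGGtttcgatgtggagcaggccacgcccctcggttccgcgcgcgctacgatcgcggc
The Hmgcs1 window holds 1 TCACNCCAC match, on the gene's strand, and 3 CCAAT matches, all on the opposite strand and none overlapping it. The Fasn window holds 0 TCACNCCAC matches and 3 CCAAT matches, at 90 to 86, 62 to 58 and 59 to 55 bases before the start, the last pair sharing 2 bases. The Idi1 window, which runs into an annotated transcript and is not printed, held 0 TCACNCCAC and 2 CCAAT matches. Over 32851 mouse promoter windows of the same length, 1.05% held TCACNCCAC and 33.9% held CCAAT. The GC box, spelled GGGCGG, was also searched on both strands: 2 matches in Hmgcs1, 1 in Idi1 and 0 in Fasn, against 32.7% of windows with at least 1. These are letter matches only, and other forms of the sterol regulatory element were not searched. Whether such matches bear on how these genes vary was not tested.

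Hmgcs1 was the most evenly expressed member. It was read in every cell, at 6.81 CPM in the lowest, 262 CPM in the median and 1051 CPM in the highest cell, with a mean of 291 ± 181.99 CPM (SD over all cells of both plates, as for all means below). Only 2 cells lay under 10 CPM, and the 19 cells with most Hmgcs1 (10% of the cells) held 23.0% of its summed level. Plate means were 286 and 297 CPM.

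The other 4 sterol genes were patchy. Idi1 was read in 49 cells, so that its lowest and median values were 0, with a highest value of 79.9 CPM, with a mean of 3.34 ± 9.53 CPM. It reached 10 CPM in 19 cells (10.1%, exact 95% binomial interval 6.20% to 15.3%, covering counting error only), just past the low-value filter of 10 CPM in at least 10% of cells, which all 7 members passed. Fdps ran from 0 over a median of 11.9 to 275 CPM, with a mean of 24.8 ± 36.1 CPM and 40 cells without a read. Fdft1 ran from 0 over a median of 14.7 to 465 CPM, with a mean of 62.1 ± 96.1 CPM and 21 cells without a read. Sqle ran from 0 over a median of 18.003 to 703 CPM, with a mean of 82.1 ± 124.5 CPM and 13 cells without a read. For Fdps, Fdft1 and Sqle the SD exceeded the mean, and a few cells carried much of the signal: the top 19 cells held 44.1%, 48.3% and 47.05% of the summed level. Each of these 3 genes had the higher mean on plate 2, at 18.8 and 30.8 CPM on plates 1 and 2 for Fdps, 45.5 and 78.7 CPM for Fdft1, and 68.2 and 96.1 CPM for Sqle.

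Of the fatty acid genes, Fasn was at 0 in the lowest cell, 79.5 CPM in the median and 748 CPM in the highest, with a mean of 137.9 ± 149.9 CPM and 2 cells without a read. Scd1 was at 0, 35.8 and 660 CPM in the lowest, median and highest cell, with a mean of 89.5 ± 114.2 CPM and 6 cells without a read. Their plate means went opposite ways, with 114.3 and 161.6 CPM for Fasn and 98.4 and 80.7 CPM for Scd1 on plates 1 and 2. None of these plate differences could be tested, since each plate is 1 set of cells without a named animal.

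**Figure D1:**
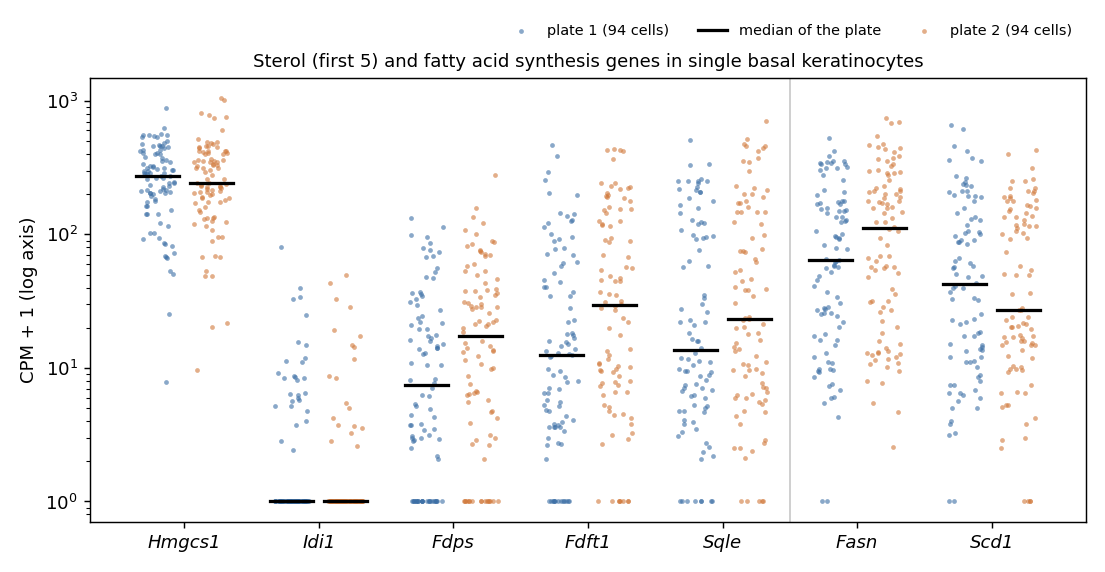
Level of each member in every cell (CPM + 1, log axis), 94 cells on each of plates 1 and 2, with the plate median as a bar. Hmgcs1 forms a single band around its median of 262 CPM, Idi1 sits mostly at 0, and Fdps, Fdft1, Sqle, Fasn and Scd1 each spread from no read to highest values of 275 to 748 CPM.

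Divided by the annotated exon length in kb, mean levels were 63.4 CPM per kb for Hmgcs1, 18.3 for Scd1, 14.8 for Sqle, 14.7 for Fdft1, 12.6 for Fasn, 5.90 for Fdps and 0.952 for Idi1. Whether these means differ was not tested, since all cells count as 1 sample, and this holds for each place in the order. Reads beyond 3 times those that other wells were estimated to supply were found for Hmgcs1 in 88.3% of the cells, Fasn in 57.98%, Scd1 in 52.1%, Fdps in 51.6%, Fdft1 in 40.96%, Sqle in 39.9% and Idi1 in 24.5%. At 10 CPM or more the same genes were found in 98.9%, 86.7%, 77.7%, 51.6%, 57.4%, 60.1% and 10.1% of the cells. Hmgcs1, Fasn, Scd1, Fdft1 and Sqle thus passed the margin of 3 times in fewer cells than they reached 10 CPM. Other wells may have supplied part of the low reads of these genes.

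To ask whether this patchiness exceeds technical noise, the squared coefficient of variation of each gene was set against a trend fitted to the ERCC spike-ins, RNAs added in equal amount to every well. A gene was counted as variable at 2 times the trend on both plates. This was met by 8.41% of the 3685 genes that averaged at least 50 CPM (310 genes), and by 0 of the 5 members with such a mean. On the plate with the smaller ratio, Sqle was at 1.68 times the trend, Fdft1 at 1.66, Fasn and Scd1 at 1.48 and Hmgcs1 at 0.994, where the median gene stood at 1.30 and Krt10 at 91.1. On the other plate Sqle reached 2.96 times the trend, Fasn 2.42 and Scd1 2.02. Hmgcs1 reached 1.79 there. Sqle and Fdft1 stood above most genes on the smaller ratio without passing the rule. Fdps and Idi1 were under 50 CPM on average, with ratios of 0.488 and 0.342. With the reads estimated to come from other wells subtracted, 2 members passed the rule in place of 0.

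The members were then compared in pairs by Spearman's rho over all cells. All points of a pair share their library, its depth and its stray reads, and the weak values below are descriptions. Of 21 pairs, 19 had a rho above 0, and 18 were above 0 on both plates, with a mean rho of 0.186 (0.180 on plate 1 and 0.189 on plate 2). Over all 43659840 pairs of the 9345 genes that passed the low-value filter the median was 0.0117. A pair was counted at a rho of 0.3 or more on both plates, which 0.00707% of all pairs reached. Among the members 1 of 21 pairs reached it, Fdps with Fdft1, the steps on either side of farnesyl diphosphate, at a rho of 0.415 (0.403 and 0.353 on plates 1 and 2). With every cell thinned to the lowest total its rho was 0.298. Over 14 alternatives the number of counted pairs ran from 0, among genes averaging at least 50 CPM, which leaves out Fdps and Idi1, to 4 with scaling to the spike-ins, and it was 2 with stray reads subtracted.

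The sterol pairs stood highest on average. These 10 pairs averaged a rho of 0.231 (0.216 and 0.248 on the plates), with all 10 above 0 over all cells and 9 on both plates. The 10 pairs of a sterol with a fatty acid gene averaged 0.160. Hmgcs1 was weak among the sterol genes, from 0.114 with Fdft1 (-0.0516 and 0.287) to 0.197 with Fdps (0.228 and 0.186). Among sterol pairs, Fdps with Fdft1 was followed by Fdps with Sqle at 0.309 (0.290 and 0.285) and Fdft1 with Sqle at 0.285 (0.255 and 0.290). Fasn stood aside: its 6 pairs averaged 0.0885, against 0.224 for the 15 pairs without it, and Fasn with Scd1 had a rho of -0.0148 (-0.0861 and 0.0549). Scd1 paired instead with Hmgcs1, at 0.338 (0.386 and 0.288), the second highest of the 21 values, while Fasn with Hmgcs1 was at -0.00598.

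Pairs were also counted by cells. At 50 CPM or more, Fdps was found in 32 cells, Fdft1 in 61 and Sqle in 70. Of the 32 cells with Fdps, 59.4% also had Fdft1 at that level, against 26.9% of the other cells. Sqle was found in 62.5% of the cells with Fdps and in 32.1% of the others, and in 52.5% of the cells with Fdft1 and 29.9% of the others. Fasn was found in 78.7% of the cells with Fdft1 and 52.8% of the others, in 75% of the cells with Fdps and 58.3% of the others, and in 70% of the cells with Sqle and 55.9% of the others. Counted this way, Fasn with Fdft1 differed by as much as Fdft1 with Sqle, although its rho was 0.175. For the fatty acid pair the shares were close, with Scd1 at 50 CPM in 45.2% of the cells with Fasn and 42.5% of those without. No cell had all 7 members at 50 CPM, since Idi1 reached it in 1 cell. The numbers of cells with 0, 1, 2, 3, 4, 5 and 6 members at that level were 1, 30, 53, 48, 27, 20 and 9.

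Each member was also compared with a score of the others, the mean over the 6 other members of the standardised log2(CPM + 1). Fdps had the highest rho with it, 0.448 (0.464 and 0.423 on the plates), followed by Fdft1 at 0.429 (0.342 and 0.499), Sqle at 0.393 (0.387 and 0.381), Idi1 at 0.327 (0.333 and 0.387) and Scd1 at 0.308 (0.332 and 0.304). Hmgcs1, at 0.263, and Fasn, at 0.143, did not reach 0.3 on both plates. The count was thus 5 of 7 members, where 14 of 9338 other genes (0.15%) reached it with the score of all 7.

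**Figure D2:**
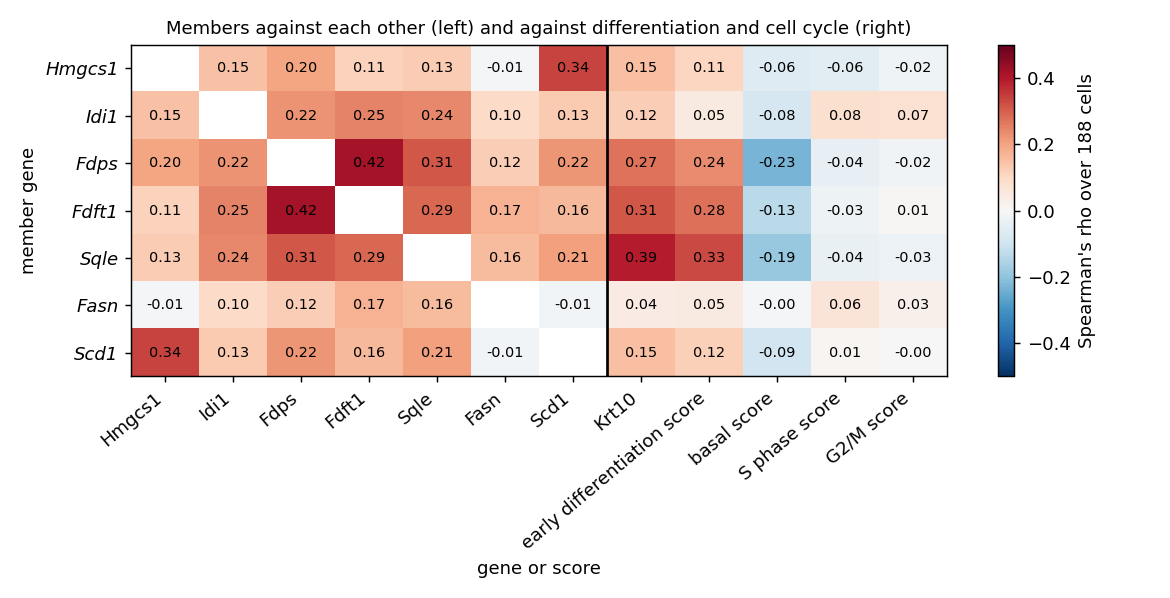
Spearman's rho over all cells of each member (rows) with each other member (left of the line) and with Krt10 and the differentiation and cell cycle scores (right). The darkest cell on the left is Fdps with Fdft1 at 0.415, Fasn is pale throughout, and on the right Sqle with Krt10 stands at 0.392 while the S phase and G2/M columns are near 0.

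The 7-member score had a median of -0.00957, an SD of 0.545 and a range of -1.38 to 1.67 over the cells. It had a rho of 0.361 (0.372 and 0.332 on the plates) with gene counts per spike-in count, a measure of RNA content. The rho was 0.200 with the number of genes detected, 0.0891 with the total and -0.0760 with the share expected from other wells. Of these measures only RNA content reached 0.3 on both plates. Given RNA content and plate, the mean rho of the 21 pairs was 0.161, and given depth, genes detected, mitochondrial share and plate it was 0.183. With every cell thinned to 79868 reads it was 0.149. The summed sebaceous markers had a rho of 0.168 with the score, and their part in it was not tested.

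The highest score belonged to cell H6 of plate 2, with 1009 CPM of Hmgcs1, 18.2 of Idi1, 120.3 of Fdps, 437 of Fdft1, 703 of Sqle, 210.2 of Fasn and 315 of Scd1. This cell had 42131 CPM of Krt14, the basal keratin, and 2149 CPM of Krt10, a basal score of -0.642 and an early differentiation score of 0.433, on the scores described below. The next 3 cells differed from it, with 31525 CPM of Krt10 in B3 of plate 1, 25133 CPM in A5 of plate 2 and 43297 CPM in F6 of plate 1, and 1816 to 3607 CPM of Krt14. In B3 of plate 1 Sqle was at 336 CPM and Fdft1 at 295 CPM, and in A5 of plate 2 Sqle was at 517 CPM and Fdps at 275 CPM. The lowest score belonged to F2 of plate 1, with 6.81 CPM of Hmgcs1, 0 of Idi1, Fdps and Sqle, and 134.02 CPM of Fasn, beside 47642 CPM of Krt14 and 697 CPM of Krt10.

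Krt10, which keratinocytes switch on as they leave the basal state, ran from 185.4 over a median of 882 to 45289 CPM, with a mean of 4864 ± 8809 CPM. It exceeded 3 times the reads estimated to come from other wells in 59 cells (31.4%). In the remaining cells Krt10 did not pass this margin. Other wells may have supplied a sizeable part of these lower values, and their order is uncertain. The member score had a rho of 0.374 with Krt10 over all cells and a Pearson's r of 0.420 on the log scale. Without the 2 cells farthest from the Krt10 median the rho was 0.355. It was 0.253 on plate 1 and 0.451 on plate 2, and so did not reach 0.3 on both. The score of the 5 sterol genes had a rho of 0.401 (0.289 and 0.470), and the score of Fasn and Scd1 one of 0.152 (0.0638 and 0.202). Whether the sterol and fatty acid values differ was not tested.

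Gene by gene, Sqle came first with a rho of 0.392 with Krt10 (0.262 and 0.462). Of the 9345 genes compared, 47 exceeded this value, Krt10 itself among them. Fdft1 followed at 0.309 (0.217 and 0.357) and Fdps at 0.270 (0.175 and 0.304). The other sterol genes, Hmgcs1 at 0.149 and Idi1 at 0.125, lay next to Scd1 at 0.152, and Fasn was at 0.0400. The median rho with Krt10 of all genes but Krt10 was -0.00458. Among the genes compared, with Krt10 and the members included, the members stood at percentiles 99.5 (Sqle), 98.9 (Fdft1), 98.3 (Fdps), 92.9 (Scd1), 92.5 (Hmgcs1), 89.5 (Idi1) and 67.3 (Fasn). By the rule of 0.3 on both plates, 0 of 7 members were counted, where 0.631% of 9344 genes were. Every value was lower on plate 1 than on plate 2 except those of Idi1 and Fasn. The share of reads expected from other wells had a rho of 0.227 with Krt10 and of -0.0760 with the member score. Its part in these values was not tested. With such reads subtracted, the score's rho with Krt10 was 0.315 and that of Sqle 0.305. Without the 7 cells that had over 25% of such reads the score's rho was 0.401. Given RNA content and plate it was 0.367.

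**Figure D3:**
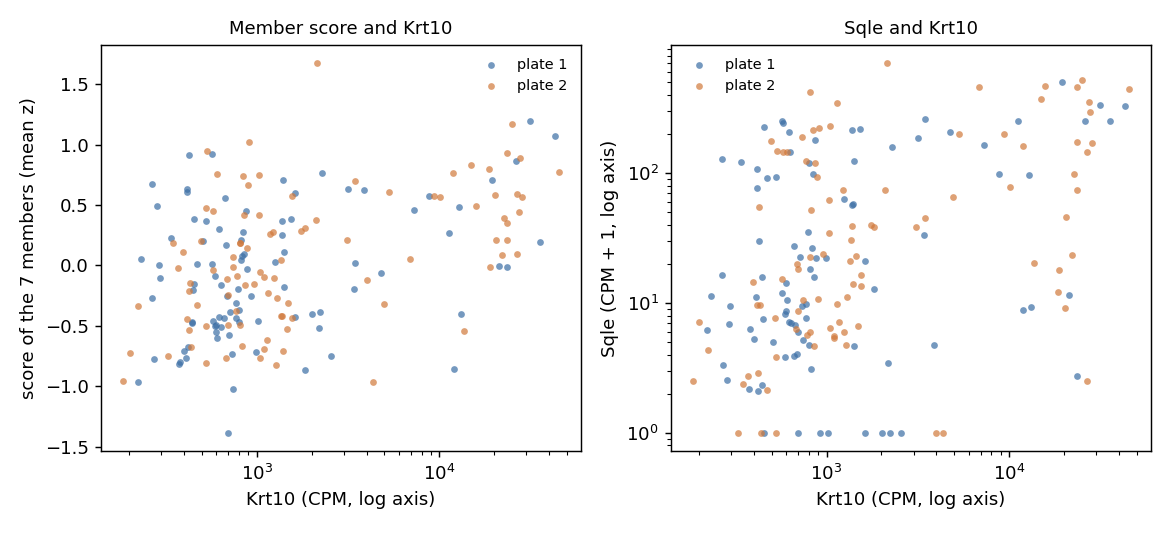
Member score (left) and Sqle (right, CPM + 1, log axis) against Krt10 (CPM, log axis), 1 point per cell, 94 cells per plate. Cells above 10000 CPM of Krt10 mostly have a score above 0, but cells below the Krt10 median of 882 CPM also run from -1.38 to 0.943, and the highest score, 1.67, belongs to a cell with 2149 CPM of Krt10, with rho values of 0.374 for the score and 0.392 for Sqle.

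Krt10 is 1 gene, so the members were also set against a score of 11 early differentiation genes (Krt10 with Krt1, Krtdap, Sbsn, Dmkn, Calm4, Mt4, Dsg1a, Dsc1, Klk10 and Notch3), which had a rho of 0.826 with Krt10. The member score had a rho of 0.284 with it (0.163 and 0.366 on the plates). Sqle was at 0.331, Fdft1 at 0.275 and Fdps at 0.237, and the other members lay between 0.0455 and 0.120. Here again 0 of 7 members were counted, against 0.579% of 9334 genes. With a score of 15 basal genes, among them Krt5, Krt14, Col17a1 and Itga6, the member score had a rho of -0.196 (-0.0798 and -0.296), and Fdps was the lowest member at -0.232.

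With the cell cycle the values in CPM were near 0 or differed in sign between plates. With a score of 33 S phase genes, such as the Mcm helicase subunits and Pcna, the member score had a rho of 0.0251, and the plates differed in sign, at 0.194 and -0.159. Single members lay between -0.0579 (Hmgcs1) and 0.0813 (Idi1), and 0 of 7 were counted, against 0.999% of 9312 genes. With a score of 26 G2/M genes the member score had a rho of 0.0215 (0.0362 and -0.000340), members lay between -0.0310 (Sqle) and 0.0745 (Idi1), and 0 of 7 were counted, against 0.579% of 9319 genes. The median of all other genes was 0.0553 with the S phase score and 0.0368 with the G2/M score, so most members lay under the typical gene. Single cycle genes gave the same picture: the rho with the member score was -0.0251 for Pcna, the sliding clamp of replication, -0.0491 for Mcm5, 0.0208 for Top2a and -0.0970 for Mki67. Krt10 itself had a rho of -0.375 with the S phase score (-0.256 and -0.507). Given Krt10 and plate, the member score's rho with the S phase score was 0.191. Given the S phase score and plate, the member score's rho with Krt10 was 0.402. With values scaled to the spike-ins in place of the gene total, which moves the median gene's rho with the member score from 0.0351 to 0.155, the rho with the S phase score was 0.298 and with the G2/M score 0.208.

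**Figure D4:**
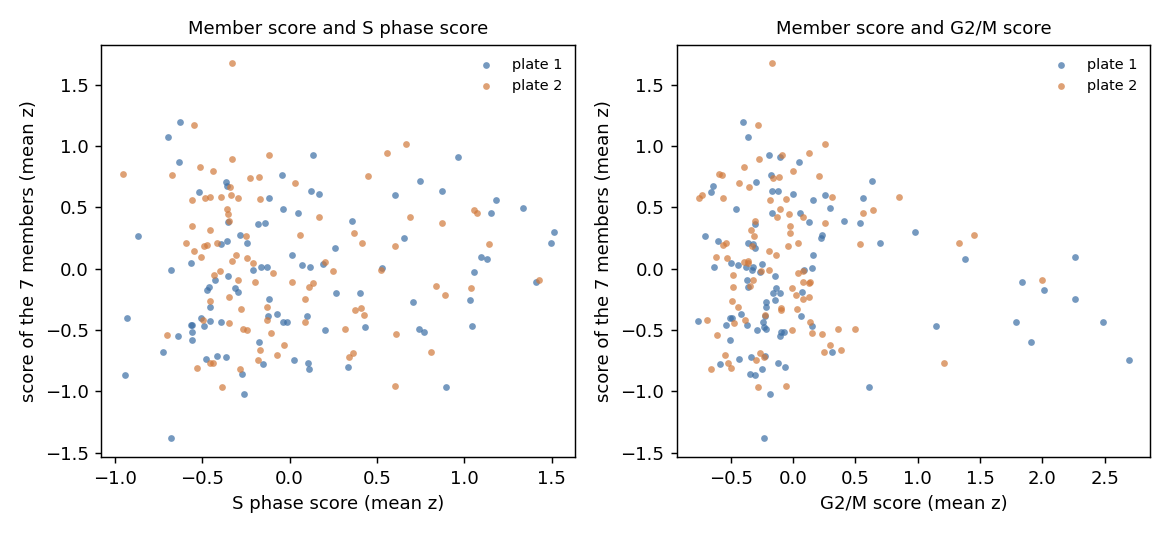
Member score against the S phase score (left) and the G2/M score (right), each a mean of standardised log2(CPM + 1) values, 1 point per cell, by plate. Cells with high cycle scores lie on both sides of a member score of 0, with rho values of 0.0251 and 0.0215.

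The rest of the pathway was read through gene lists. Of 15 other sterol synthesis genes 14 passed the low-value filter, all 14 had a rho above 0 with the member score, and the median was 0.214, where the median of all 9338 other genes was 0.0351 and their middle 90% ran from -0.118 to 0.186. By the rule of 0.3 on both plates 2 were counted. One was Mvk, the mevalonate kinase, at 0.395 (0.385 and 0.399), with a mean of 98.2 ± 121.2 CPM. Msmo1, a sterol C4 demethylating oxidase, was at 0.379 (0.478 and 0.294) and did not reach 0.3 on plate 2. The other most expressed genes of the list were lower, with Ebp, a sterol isomerase, at 0.178, Hsd17b7 at 0.173 and Acat2, which makes acetoacetyl-CoA, at 0.214. With Krt10, 14 of the 14 had a rho above 0 and 1 was counted, Sc5d, a sterol desaturase, at 0.385 (0.347 and 0.414), which was singled out after its value was seen.

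Genes that use isoprenoids for other ends followed less. The 9 tested, all of their list, had a median of 0.107 with 8 above 0 and 0 counted. Fnta, a subunit of farnesyl and geranylgeranyl transferase and the most expressed of them at 162.5 ± 174.3 CPM, was at 0.131. Nus1 and Dhdds, which together make dolichol precursors, were at 0.0768 and 0.262. Among 11 of 14 genes of sterol sensing and uptake the median was 0.0949, 9 were above 0, and 1 was counted: Srebf2, at 0.395 (0.413 and 0.366), with a level of 84.04 ± 98.3 CPM. Srebf1, with 150.6 ± 162.2 CPM, was at 0.137 (0.163 and 0.0964). Insig1, which retains SREBP in the endoplasmic reticulum and is itself an SREBP target, was at 0.324 (0.212 and 0.423) from a level of 10.3 ± 24.6 CPM. Npc2, a lysosomal cholesterol carrier and the most expressed gene of the list at 309.7 ± 199 CPM, and Scap, the SREBP escort, were at 0.00475 and 0.00415. Genes of sterol export and LXR, a receptor that senses oxidised sterols, gave a median of -0.0238 over 6 of 8 genes, with 2 above 0 and 0 counted. Nr1h2, which encodes LXR beta, was at 0.0994, Abcg1, a sterol exporter, at -0.0545, and Mylip, a ubiquitin ligase induced by LXR, at -0.0203.

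Of 24 other fatty acid genes 14 passed the filter, all 14 were above 0 with a median of 0.161, and 0 were counted. Scd2, a desaturase like Scd1, had a mean of 162.1 ± 186.3 CPM, or 29.7 CPM per kb against 18.3 for Scd1, and was at 0.328 (0.342 and 0.292). Hsd17b12, a reductase of fatty acid elongation at 251 ± 199 CPM, was at 0.266, Acly, which makes cytosolic acetyl-CoA, at 0.236, Acaca, which makes malonyl-CoA, at 0.153, and Elovl1, an elongase, at 0.0902. Tecr, the enoyl reductase of elongation and the most expressed gene of the list at 477 ± 272 CPM, was at 0.164 but at 0.000368 on plate 1. Genes of the list picked out after their values were seen, for being near 0, were Scd3 at a mean of 0.103 CPM, Elovl3 at 0.156 CPM, and Mlxipl and Fads2 with no read in any cell. Fatty acid oxidation genes had a median of 0.0605 over 11 of 12, with 8 above 0, and barrier ceramide genes one of 0.0606 over 9 of 14, with 8 above 0, and 0 of either were counted. Acaa2 and Hadha, thiolase and trifunctional protein of oxidation, were at 0.120 and 0.0589, and Sptlc1, a serine palmitoyltransferase subunit of the ceramide list, at 0.121. The early differentiation list had a median of 0.208 with 11 of 11 above 0, the basal list one of -0.183 with 0 of 15 above 0, and S phase and G2/M genes 0.0291 and 0.000368.

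**Figure D5:**
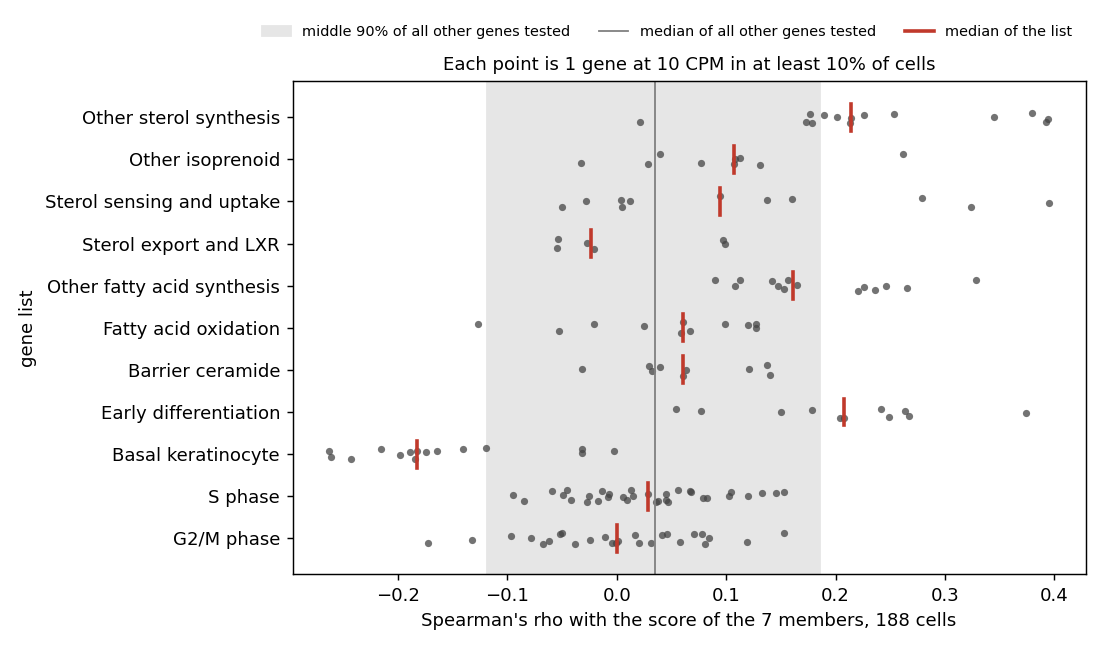
Spearman's rho of each listed gene with the member score over all cells (1 point per gene at 10 CPM in at least 10% of cells), the list median in red, and the median and middle 90% of all other genes as a line and a band. The medians of the other sterol synthesis list, at 0.214, and of the early differentiation list, at 0.208, lie right of the band, which ends at 0.186. The median of the basal list, at -0.183, lies left of the band, which begins at -0.118. The export, oxidation and cell cycle lists centre within it.

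Without any list, the genes most like the member score, ordered by whichever plate gave the rho closer to 0, began with Mvk at 0.385 and Srebf2 at 0.366, both already described. Among those that followed were Degs1, the desaturase that makes ceramide from dihydroceramide, at 0.348, Tuba4a, an alpha tubulin, at 0.333, Perp, a membrane protein of desmosomes, at 0.321, Lipm, a lipase, at 0.319, Lgals3, a galectin, at 0.315, and 2610528J11Rik at 0.315. Degs1 was at 679 ± 487 CPM and Perp at 6552 ± 2598 CPM. These genes were ranked without holding RNA content, with which the score itself varied. Given RNA content and plate, only 0.0321% of genes were counted as higher, in place of 0.15%. At the low end stood Tmsb4x, thymosin beta 4, which binds actin monomers, with -0.401, and Ftl1, the ferritin light chain, with -0.369, followed by CT010467.1 at -0.299, Apoe, a lipoprotein component, at -0.267, and Hif1a, the hypoxia factor, at -0.261. Of these 2 reached -0.3 on both plates, which is 0.0214% of 9338 genes. CT010467.1 averaged 78618 ± 16356 CPM, so its level weighs on the gene total by which all CPM values are scaled. Its part in the values here was not tested. Ftl1 has many near-identical copies in the genome, and its count is uncertain.

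For single members the likest genes, by the same measure, were again partly sterol genes. Sqle had, among its first 3, Msmo1 at 0.341 and Jup, plakoglobin of desmosomes, at 0.323, with 3 genes counted in all. Fdft1 had Srebf2 at 0.391, Fdps at 0.353 and Mmab, a cobalamin enzyme, at 0.285, with 2 counted. Fdps had Fdft1 at 0.353, Mvk at 0.315 and Degs1 at 0.305, with 4 counted. Hmgcs1 had, among its first 3, Scd1 at 0.288 and Hmox1, heme oxygenase, at 0.230, and Scd1 had Hmgcs1 at 0.288, Atp8b1, a lipid flippase, at 0.269 and Pak4, a kinase, at 0.244, with 0 counted for either. Idi1, with few reads, had Atg3 at 0.295, Pnpla3 at 0.276 and Phb at 0.253, and 0 counted. Fasn had no listed lipid gene among its first 3, which were Zfp706 at 0.302, Sass6, a centriole protein, at 0.281 and Gars, a tRNA synthetase, at 0.267, with 1 counted.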

How the data were processed

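Polyadenylated RNA of single cells, 94 on each of 2 plates, was measured by Smart-seq2 with ERCC spike-ins. The authors deposited whole-number counts of reads per gene without normalization. The tools named in the submitters' processing notes are HTSeq 0.6.0, STAR 2.5.2b and cutadapt 1.13, and the build is GRCm38. Parameters, strand setting and annotation release were not given in the sources. There are 49585 gene rows, of which 49326 matched a symbol, beside 92 spike-in rows. No unique molecular identifiers were used, so counts include amplified copies.

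CPM was computed over gene rows only. Scores are means of standardised log2(CPM + 1), where 1 CPM is the pseudocount. Genes were compared where 10 CPM was reached in at least 10% of cells (9345 genes), and were counted at a Spearman's rho of 0.3 or more (or -0.3 or less) on both plates, a rule of size. Stray reads between wells were estimated from 177 genes read almost only in a few wells. The rates were 27.3 per 10000 reads for wells of the same row letter on either plate, 13.6 for the same column of the same plate and 1.05 for all other wells of both plates. Identical pairs of cells numbered 0, and the likest pair had a correlation of 0.567. The scripts were tested on simulated data. Named genes are the 7 members, Krt10, up to 5 of highest mean and all counted genes of each list, fixed regulators, and the 3 (members), 10 and 5 (score) likest genes, except a few that are not reported here. The members and the 18 lists were chosen with earlier results of these data known. Python 3.11.15, numpy 2.4.6, scipy 1.17.1, pandas 2.3.3, R 4.3.3 and scran 1.30.0 were used. Alternatives were scran size factors, spike-in scaling, subtraction of stray reads, single plates, left-out cells, thinning, centring by row, partial rho, filters and pseudocounts.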

Additional observations from a re-analysis of the deposited data

How the results depend on the processing

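The mean rho of the 21 member pairs stayed above 0 in 14 of 14 alternatives (0.149 to 0.287), the score's rho with Krt10 in 16 of 16 (0.252 to 0.527), and the median of the other sterol genes in 17 of 17 (0.171 to 0.342). Of the values under alternatives, 37 of summary results and 57 of 593 of single genes moved by over 0.1 in rho or over 1.5 times in a count or share.

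Scaling to spike-ins moved most: member pairs 0.287, Krt10 0.527, early differentiation 0.531, S phase 0.298, G2/M 0.208, pathway genes counted 15 of 48 in place of 3, other sterol genes 0.342, other fatty acid genes 0.325, all genes counted with the score 5.78% higher and 0 lower in place of 0.15% and 0.0214%, and the median of all genes 0.155. On plate 1 alone Krt10 was at 0.252, early differentiation at 0.164 and S phase at 0.195, with 7 pathway genes and 1.72% higher and 0.0857% lower genes. On plate 2 alone S phase was at -0.156, with 6 pathway genes and 0.996% higher and 0.418% lower genes, where a single plate has to pass only its own threshold. Higher genes made up 0.0643% after thinning, 0.0750% given depth, genes detected, mitochondrial share and plate, and 0.0321% given RNA content, an alternative chosen after seeing the data. Without a filter 0.0680% were higher and 0.00971% lower, and among genes averaging 50 CPM 0.299% and 0.0543%, with other genes tested. Lower genes made up 0.0428% without the 5% of cells with most genes and 0.0428% after centring by row, where G2/M was at -0.0829. Given Krt10 and plate, S phase was at 0.191. The median share of cells per member was 60.1% at 10 CPM, 93.1% at 1 read, 68.6% at 1 read after thinning and 51.6% above 3 times the stray reads. Variable members numbered 2 at 1.5 times the spike-in trend and 2 with stray reads subtracted, in place of 0. Except as stated, the cause was not tested. No paired analysis was possible because all cells form 1 group.

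Depth limits Idi1 and Fdps most, with 321 and 1992 reads over all cells, and a weak rho of such a gene is no measure of its true relation. The cells of 1 group without named animals give no spread between mice.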
